A study of Mus musculus with 12 samples.

Results

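The genes described here are 9 regulators and receptors of primitive endoderm, the extraembryonic layer that forms beside the epiblast in the blastocyst. They are the transcription factor genes Gata4, Gata6, Sox7, Sox17, Foxa2 and Hnf4a, the receptor tyrosine kinase gene Pdgfra, the endocytic adaptor gene Dab2 and the uptake receptor gene Cubn. They were chosen by symbol from the array's annotation, and all 9 of the 9 listed were measured, each by 1 probe set naming that gene alone, among 22180 genes. RNA levels were read on 12 Affymetrix arrays, in 4 groups of 3, of mouse embryonic stem (ES) cells. All 12 samples carried a tdTomato reporter driven by MERVL, an endogenous retrovirus of early embryos, and were grown in serum replacement medium with LIF on gelatin. The parental group was the reporter line itself, and the Dppa2/4 KO group (KO) had both Dppa2 and Dppa4, genes of DNA-binding proteins of pluripotent cells, knocked out. Knockout cells given Dppa2 and Dppa4 plasmids with GFP formed the other groups, with the wild-type proteins (KO+WT) or with SUMO-deficient ones (KO+Mut). The series' design text describes lipofectamine transfection and sorting of GFP-positive cells for the add-backs and does not mention either step for parental or KO cells, so the add-back and these steps cannot be told apart. The sources used here do not give how many clones the KO group stands for, or what the replicate numbers mean beyond "biological". The p-values therefore measure only the spread between these samples.

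In the blastocyst, FGF4 made by epiblast precursors acts through FGF receptors and ERK on neighbouring cells, where GATA6 turns on and NANOG is lost. PDGFRA, SOX17, GATA4 and SOX7 are also made by cells of this lineage, which sort to the surface of the inner cell mass. PDGFRA, the receptor for PDGF-A, is needed for the survival of primitive endoderm cells, and DAB2 organises the sorted layer by carrying membrane cargo into the cell. Cubilin, the product of Cubn, has no membrane span of its own and works with amnionless and megalin in the absorptive visceral endoderm that forms later, where FOXA2 and HNF4A are also active. Cultures of ES cells hold a varying minority of cells with primitive endoderm transcripts. In bulk samples such as these, fewer cells of a type and less RNA per cell cannot be told apart.

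Median log2 signals per array lay between 3.73 and 3.88, and arrays correlated with r between 0.976 and 0.994 over genes. The half-width of the 95% interval of a difference between groups was 0.344 for the median gene. For 16 naive pluripotency genes, all measured, the mean signal was 8.31 to 8.39 in parental and 8.30 to 8.45 in KO arrays. It was 8.19 to 8.26 in KO+WT and 8.18 to 8.24 in KO+Mut arrays, below every parental and KO array. Against parental cells, 3, 6 and 6 of the 16 had an unadjusted p below 0.05 in KO, KO+WT and KO+Mut. Of all genes 6.94%, 10.7% and 11.5% had one. The Dppa2 signal was 9.35 to 10.2 in parental, 8.13 to 8.69 in KO, 10.8 to 11.3 in KO+WT and 11.1 to 11.3 in KO+Mut arrays. The group means of Dppa4 had the same order, with 8.46 in parental, 7.62 in KO, 10.4 in KO+WT and 10.5 in KO+Mut. For both genes every add-back array lay above every parental array. Signal for both genes remained in KO arrays, and whether the probes lie inside the deleted parts was not tested.

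Across the 4 groups the genes are described in 3 sets, drawn after their values were seen. Pdgfra, Dab2 and Cubn had their highest mean in parental cells and lower ones in KO, KO+WT and KO+Mut cells, with log2 differences of -1.24 to -2.58 from parental cells. Gata4, Gata6, Sox7 and Sox17 also had their highest means in parental cells, with log2 differences of -0.30 to -0.77 from them in the other groups. Foxa2 and Hnf4a had group means that differed from the parental mean by -0.11 to 0.03. Below, all signals are the deposited log2 values and all differences are log2 differences, tested with limma and Benjamini-Hochberg adjustment over the 22180 genes. In that test without pairing, 0 of the 9 genes passed the adjusted threshold of 0.05 in any of the 6 comparisons. Against parental cells 6 of 9 genes had an unadjusted p below the threshold in KO (6.94% of all genes did), 5 in KO+WT (10.7%) and 5 in KO+Mut (11.5%), and 0 of 9 had one in the other 3 comparisons. The same shares of all genes apply to the gene lists below. Calls came with the replicate number as a block, because arrays of the same number deviated together from their group means, in every number and by more than a correlation of 0.1, in each comparison with parental cells. Values against KO cells are given without the block unless stated. There number 2 correlated by only 0.06 with KO+WT and 0.08 with KO+Mut, under the limit of 0.1.

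**Figure D1:**
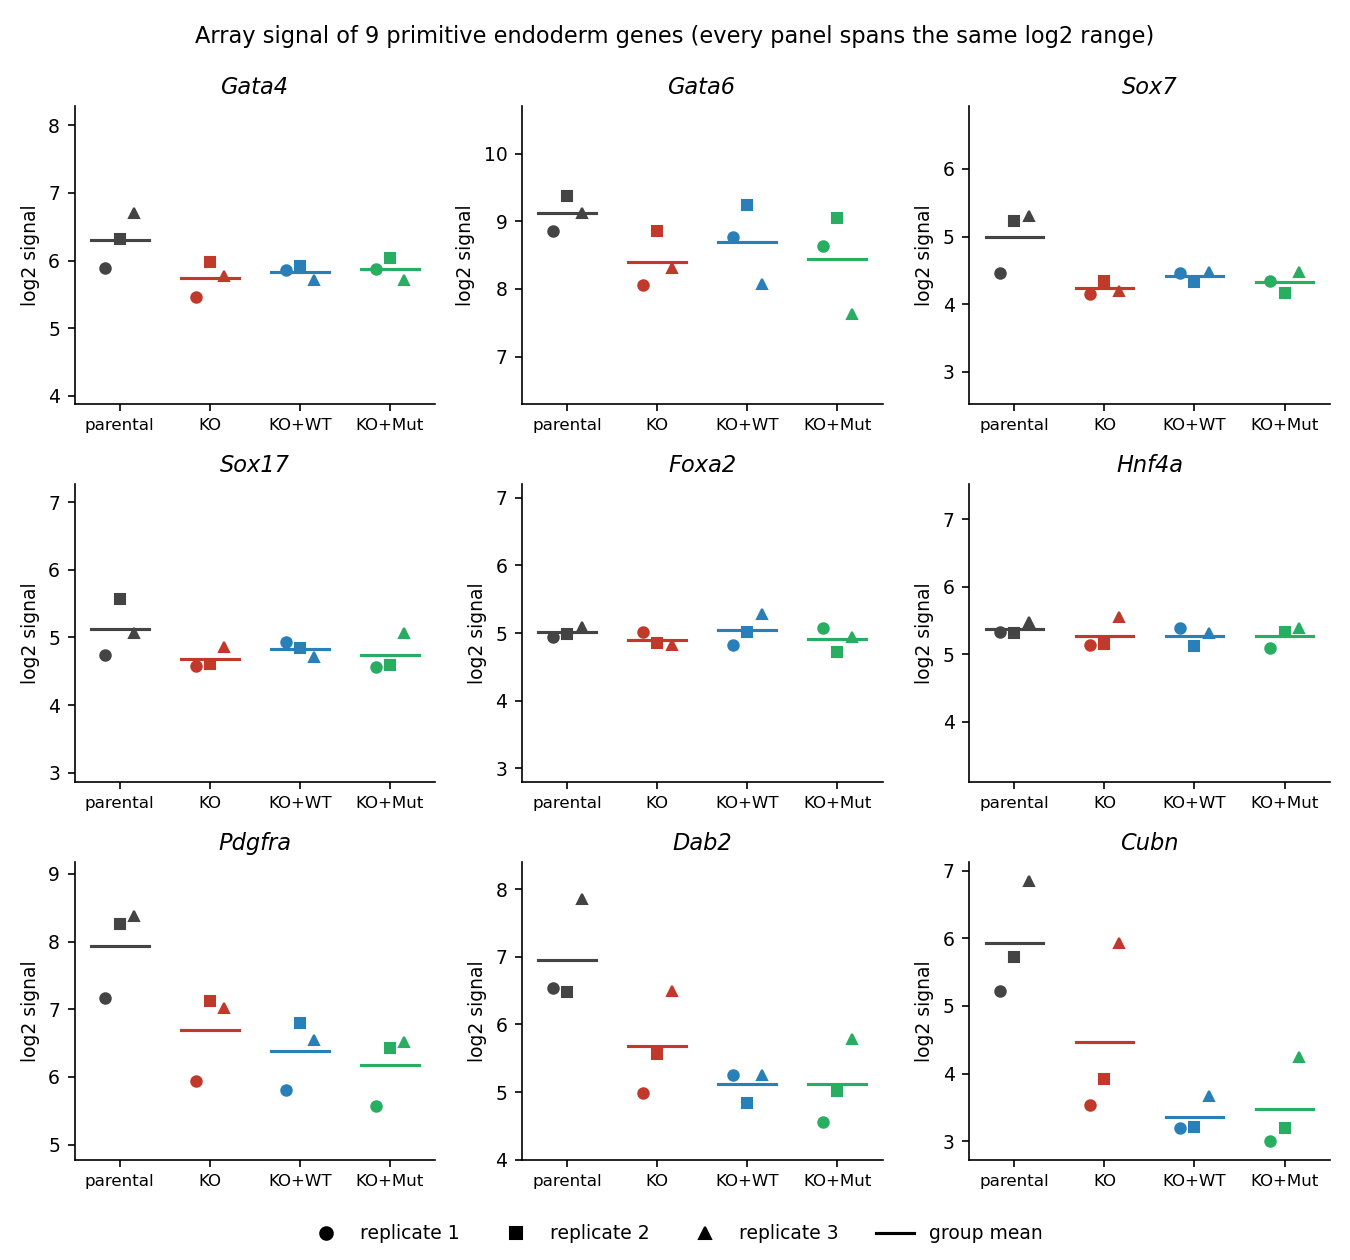
Deposited log2 signal of each of the 9 genes in the 12 arrays, by group, with a symbol for each replicate number and a bar for the group mean. Pdgfra, Dab2 and Cubn are highest in parental cells, with Pdgfra spanning 7.16 to 8.38 there and 5.57 to 6.52 in KO+Mut cells.

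Pdgfra, the PDGF-A receptor gene, gave the call in KO cells. Its signal was 7.16, 8.26 and 8.38 in parental replicates 1, 2 and 3, and 5.95, 7.12 and 7.01 in KO replicates 1, 2 and 3. In KO+WT cells it was 5.81, 6.79 and 6.55, and in KO+Mut cells 5.57, 6.43 and 6.52. Every parental array lay above every array of the other groups, and replicate 1 was the lowest in each group. KO minus parental was -1.24 ± 0.39 (SE, n = 3 against 3), or 2.36-fold lower, with an adjusted p of 0.418 in limma. Within replicate numbers the differences were -1.22, -1.14 and -1.36. Blocking on that number gave the same difference with an SE of 0.11 and an adjusted p of 0.00091. The same fit called 0.618% of all genes in this comparison, in either direction. Pdgfra fell in KO cells by that fit, and in each of 12 leave-one-out fits with the block its adjusted p stayed at or below 0.0101. A blocked fit on the 6 arrays of this comparison alone gave a larger adjusted p, 0.0423.

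Pdgfra in the add-backs lay no nearer to parental cells. KO+WT minus parental was -1.55, 2.94-fold lower, with an adjusted p of 0.133 and of 0.000141 with the block. KO+Mut minus parental was -1.76, 3.39-fold lower, with an adjusted p of 0.0589 and of 5.81e-05 with the block. Without the block, the KO+Mut difference passed when parental replicate 1 (adjusted p = 0.0275) or KO replicate 1 (0.0387) was left out. Leaving out any other parental or KO+Mut array gave 0.0938 to 0.218. Both are falls by the blocked fit, and both use the same parental arrays as the KO comparison. Blocked fits on the 6 arrays of each comparison alone gave adjusted p of 0.029 in KO+WT and 0.00379 in KO+Mut. Against KO cells, KO+WT was -0.31 (95% interval -1.17 to 0.54, adjusted p = 0.811) and KO+Mut -0.52 (adjusted p = 0.655). Within numbers KO+Mut minus KO was -0.37, -0.69 and -0.50, and the blocked fit gave an adjusted p of 0.0339. That call held in 4 of 12 blocked leave-one-out fits, and number 2 was under the pairing limit in this comparison. The order of means was therefore parental, KO, KO+WT and KO+Mut, and no pair of neighbours below parental passed the test without the block.

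Dab2 encodes the clathrin adaptor that takes up cubilin and megalin with their cargo. Its signal was 6.54, 6.48 and 7.85 in parental cells and 4.98, 5.56 and 6.49 in KO cells. It was 5.25, 4.84 and 5.26 in KO+WT cells and 4.55, 5.01 and 5.78 in KO+Mut cells. KO replicate 3, at 6.49, reached just above the lowest parental array, whereas no add-back array did. KO minus parental was -1.28 ± 0.42 (SE, n = 3 against 3), 2.43-fold, with adjusted p = 0.453 and, with the block, 0.0628, so no change was called. Without KO+WT replicate 1 or 3, arrays outside the comparison, the blocked adjusted p was 0.0208 or 0.0267. These were the only 2 of 12 blocked leave-one-out fits that passed, and without parental replicate 3 the value was 0.222. KO+WT minus parental was -1.84, 3.58-fold, with an adjusted p of 0.0876 and, with the block, 0.00929. KO+Mut minus parental was -1.85, 3.59-fold, with an adjusted p of 0.0634 and, with the block, 0.00597. Dab2 thus fell in both add-backs by the blocked fit, although in KO+WT a blocked fit on those 6 arrays alone gave 0.107. In KO+Mut the fit without the block passed without KO replicate 3 (0.0383), an array outside that comparison. It did not pass when an array of the comparison itself was left out (0.0527 to 0.218). KO+WT and KO+Mut had nearly the same mean, with a difference of -0.00 and an interval from -0.91 to 0.91.

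Cubn, the cubilin gene, had the largest differences of the 9 and the widest spread. Parental arrays read 5.22, 5.73 and 6.85, and KO arrays read 3.53, 3.91 and 5.93. KO+WT arrays read 3.19, 3.21 and 3.66, and KO+Mut arrays 3.00, 3.19 and 4.24. KO replicate 3 lay within the parental range, KO replicates 1 and 2 lay far below it, and all 6 add-back arrays lay below it. KO minus parental was -1.47 ± 0.56 (SE, n = 3 against 3), 2.78-fold, with adjusted p = 0.557 and, with the block, 0.0606. Without KO replicate 3 the difference was -2.21, or -1.88 with the block (adjusted p = 0.0151), and without KO+WT replicate 3 the blocked p was 0.0257. These were the only 2 of 12 blocked leave-one-out fits that passed, and without KO replicate 2 the adjusted p was 0.222. KO+WT minus parental was -2.58, 5.98-fold, with adjusted p = 0.0689 and 0.00276 with the block. KO+Mut minus parental was -2.46, 5.49-fold, with adjusted p = 0.0605 and 0.00263 with the block. By the blocked fit Cubn fell in both add-backs, although in KO+WT a blocked fit on those 6 arrays alone gave a larger adjusted p, 0.0339. The fit without the block passed for both without KO replicate 3 (0.0123 and 0.0106), and for KO+Mut without KO replicate 1 (0.0491). Those KO arrays are outside both comparisons and leave the differences as they were. Leaving out an array of the comparison itself never passed, with adjusted p of 0.0868 to 0.232 in KO+WT and 0.0647 to 0.227 in KO+Mut. The Cubn means of KO+WT and KO+Mut stood at percentiles 41.5 and 43.4 of all probe sets of an array, where signal and background cannot be separated without detection calls. The Cubn folds are ratios of the deposited signals, and how much background lowers them is not known.

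Against KO cells the add-backs were -1.10 for Cubn in KO+WT (95% interval -2.31 to 0.10) and -0.98 in KO+Mut, and -0.56 and -0.57 for Dab2, with adjusted p between 0.462 and 0.648. The blocked fit called 1 of the 9 genes against parental cells in KO (Pdgfra), 3 in KO+WT and 3 in KO+Mut (Pdgfra, Dab2 and Cubn in both). It called 2.06% of all genes in KO+WT and 3.13% in KO+Mut against parental cells. Without the block the shares of all genes called were 0.239% in KO, 0.55% in KO+WT and 0.992% in KO+Mut.

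**Figure D2:**
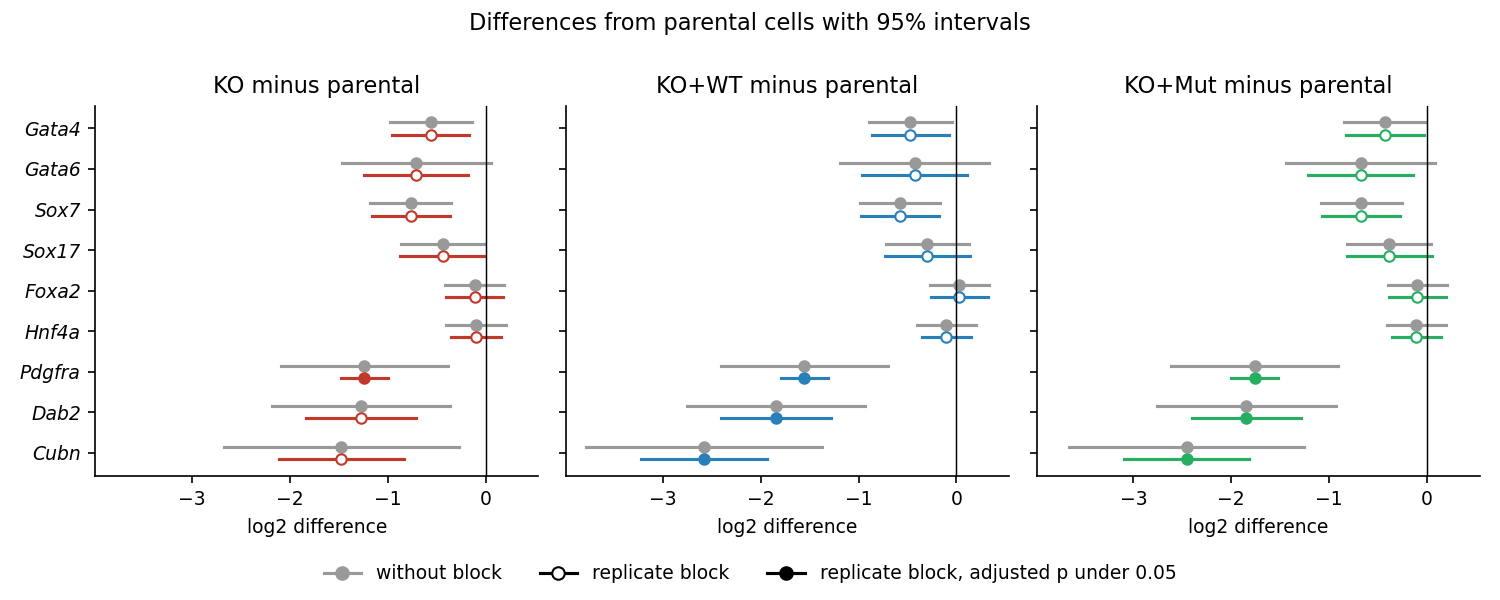
Log2 difference from parental cells for each of the 9 genes in KO, KO+WT and KO+Mut cells, with 95% intervals from the limma fit without a block (grey) and blocked on replicate number (coloured, with filled points where the adjusted p is below 0.05). Pdgfra, Dab2 and Cubn lie at -1.24 to -2.58, and Foxa2 and Hnf4a lie around 0.

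Groups that did not overlap were counted next. In KO cells, all arrays lay below all parental arrays for 3 of the 9 genes, Gata6, Sox7 and Pdgfra, against 6.83% of all genes. In KO+WT cells this held for 3 genes, Pdgfra, Dab2 and Cubn, against 7.8% of all genes, and in KO+Mut cells for the same 3 genes by name, against 9.38%. None of the 9 lay wholly above parental arrays in any group. In KO, all 9 differences were below 0, where 49.8% of all genes were.

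Among the transcription factors, Gata6 specifies the lineage. Its arrays read 8.86, 9.37 and 9.12 in parental cells and 8.05, 8.85 and 8.31 in KO cells. KO+WT arrays read 8.76, 9.24 and 8.07, and KO+Mut arrays 8.64, 9.04 and 7.64. The parental and KO arrays did not overlap, although KO replicate 2 lay only just below parental replicate 1. Replicates 1 and 2 of both add-backs differed from the parental array of the same number by -0.10 to -0.33, while replicates 3 differed by -1.05 and -1.48. KO minus parental was -0.71 ± 0.35 (SE, n = 3 against 3, adjusted p = 0.77, and 0.268 with the block), and KO+WT and KO+Mut were -0.43 and -0.68. Without replicate 3 of the add-back concerned, the Gata6 differences were -0.12 in KO+WT and -0.28 in KO+Mut. No comparison of Gata6 passed the test.

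Gata4, which acts after Gata6 in the same lineage, read 5.88, 6.31 and 6.71 in parental and 5.46, 5.99 and 5.78 in KO cells. In KO+WT it read 5.86, 5.92 and 5.71, and in KO+Mut 5.87, 6.03 and 5.71. The add-back arrays lay in a narrow band that overlapped the lowest parental array. The KO difference from parental was -0.56 ± 0.19 (SE, n = 3 against 3, adjusted p = 0.491), and the paired differences were -0.43, -0.33 and -0.93. KO+WT minus parental was -0.47 and KO+Mut -0.43, with adjusted p of 0.399 and 0.421. Replicate number 3 carried most of these differences, with -0.998 in KO+WT and -0.992 in KO+Mut, against -0.39 and -0.28 for number 2 and -0.021 and -0.014 for number 1. Without parental replicate 3 the Gata4 differences were -0.36 in KO, -0.27 in KO+WT and -0.23 in KO+Mut.

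Sox7, a SOX factor of parietal and early primitive endoderm, read 4.46, 5.23 and 5.30 in parental cells. KO arrays read 4.15, 4.35 and 4.20, KO+WT arrays 4.46, 4.32 and 4.48, and KO+Mut arrays 4.34, 4.16 and 4.48. Parental replicate 1 lay at the level of the add-back arrays, and parental replicates 2 and 3 lay above all others. KO minus parental was -0.77 ± 0.19 (SE, n = 3 against 3), with the smallest unblocked adjusted p of the 9 genes in that comparison, 0.197. Without parental replicate 1 the differences were -1.04 in KO, -0.85 in KO+WT and -0.94 in KO+Mut, with adjusted p of 0.01, 0.0225 and 0.00924, and these calls held with the block (0.0159, 0.0264 and 0.0108). With all 12 arrays Sox7 passed only in settings chosen after seeing the data, the block with trend and robust variances (adjusted p = 0.0294 in KO and 0.0255 in KO+Mut) and the block with median centring (0.0495 in KO+Mut).

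Sox17, a SOX factor of the primitive and later of the definitive endoderm, read 4.74, 5.57 and 5.07 in parental and 4.58, 4.61 and 4.86 in KO cells. KO+WT arrays read 4.94, 4.85 and 4.71, and KO+Mut arrays 4.57, 4.59 and 5.06. Parental replicate 2 stood above the rest, and parental replicate 1 lay within the range of each other group. The KO difference from parental was -0.44 ± 0.20 (SE, n = 3 against 3, adjusted p = 0.702), KO+WT minus parental -0.30 and KO+Mut minus parental -0.39. Without parental replicate 2 the Sox17 differences were -0.22, -0.074 and -0.16.

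Foxa2, the forkhead factor of visceral and definitive endoderm, read 4.94, 4.99 and 5.10 for parental, 5.02, 4.85 and 4.82 for KO, 4.83, 5.01 and 5.28 for KO+WT and 5.08, 4.72 and 4.94 for KO+Mut arrays. Hnf4a, the nuclear receptor of absorptive endoderm, read 5.33, 5.32 and 5.48 for parental, 5.13, 5.16 and 5.55 for KO, 5.39, 5.13 and 5.31 for KO+WT and 5.09, 5.33 and 5.39 for KO+Mut arrays. All groups of both genes overlapped. In KO the difference from parental was -0.11 for Foxa2 (95% interval -0.41 to 0.19) and -0.10 for Hnf4a (-0.40 to 0.21).

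Between the add-backs, KO+Mut minus KO+WT ran from -0.25 to 0.12 over the 9 genes, and the adjusted p was 1 for each. Across all genes, limma called 0% in that comparison, with and without the block, while 675 genes (3.04%) had an unadjusted p below 0.05. With the block, which pairs these arrays, the 95% intervals ran from -0.42 to 0.16 for Foxa2, -0.26 to 0.25 for Hnf4a, -0.78 to 0.28 for Gata6, -0.57 to 0.56 for Dab2 and -0.52 to 0.76 for Cubn. For Pdgfra the blocked interval ran from -0.45 to 0.032, against -1.06 to 0.65 without the block. Gata6 was lower in KO+Mut in 3 of 3 pairs (-0.12, -0.19 and -0.43), and so was Pdgfra (-0.23, -0.36 and -0.029), with blocked adjusted p of 0.93 and 0.896. Against KO cells, without the block, 0 of 9 genes passed in KO+WT (0.83% of all genes did) and 0 of 9 in KO+Mut (1.27%), and the 6 transcription factor genes differed from KO by -0.01 to 0.28.

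The spread between replicates differed widely among the 9 genes. Limma's moderated SD was 0.681 for Cubn, 0.515 for Dab2, 0.483 for Pdgfra and 0.43 for Gata6, at percentiles 99.8, 99.5, 99.3 and 98.7 of all genes, where the median gene had 0.195. Gata4, Sox7 and Sox17 lay at percentiles 75.1, 72.8 and 77.0, and Foxa2 and Hnf4a at 30.9 and 32.1. Blocked on replicate number, the SD of Pdgfra was 0.131, below the median gene's 0.157, and that of Cubn was 0.351. The same replicate number was highest in all 4 groups for 3 of the 9 genes, Gata6 (number 2), Dab2 and Cubn (number 3), against 17% of all genes. The same number was lowest in all 4 groups for Pdgfra and Cubn, number 1 in both, against 19% of all genes. What the numbers stand for in the cultures was not tested.

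**Figure D3:**
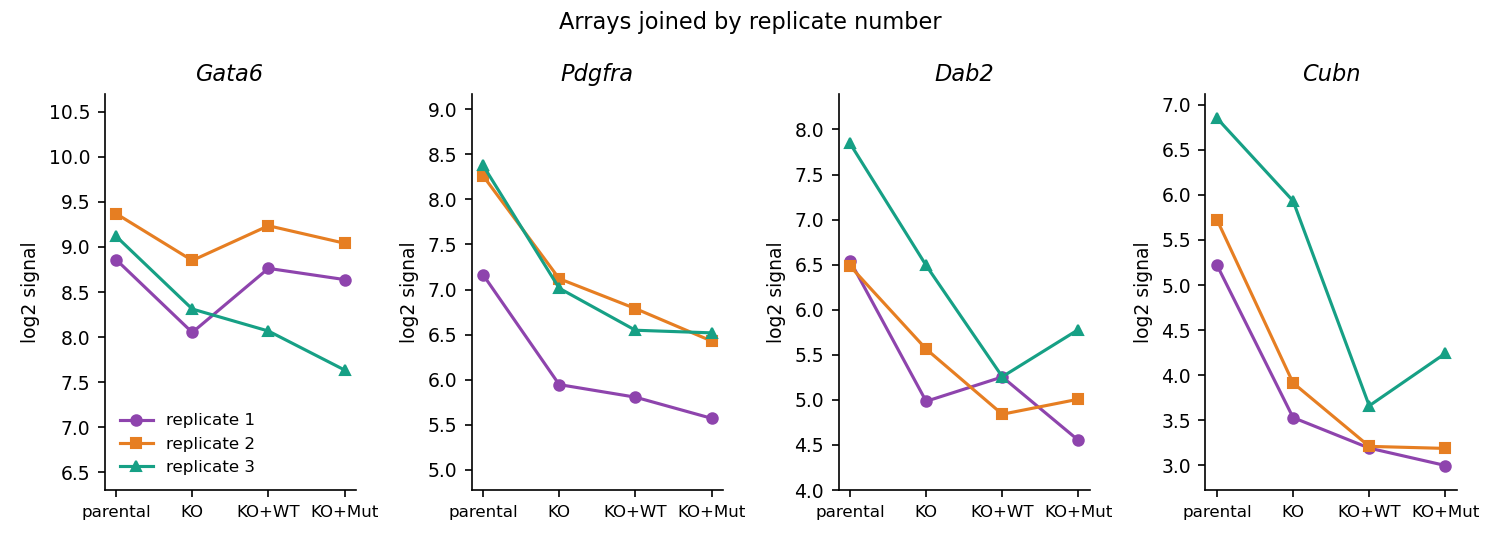
Log2 signal of Pdgfra, Dab2, Cubn and Gata6 by group, with a line joining the arrays of each replicate number. The Pdgfra lines run nearly parallel from parental to KO (-1.22, -1.14 and -1.36), and KO replicate 3 of Cubn, at 5.93, stands apart from KO replicates 1 and 2.

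RefSeq start sites on assembly GRCm38.p6 gave 9 windows of 250 bases before a start for 5 of the 9 genes, Pdgfra, Dab2, Cubn, Foxa2 and Hnf4a. Gata4, Gata6, Sox7 and Sox17 are named only. Motifs searched on both strands were the GATA-type AGATAA and TGATAA, the SOX-type ACAAT and ACAAAG, and the FOX-type TGTTTAC. They were found in 9.99%, 7.94%, 27.7%, 16.5% and 3.17% of all 32851 windows. At least 1 motif occurred in 3 of the 9 windows, against 48.1% of all windows. The 2 windows shown are those of Cubn (chr2:13491877-13492126, minus strand) and the outer Dab2 start (chr15:6299539-6299788, plus strand), printed because Cubn and Dab2 belong to 1 uptake pathway and had the largest differences from parental cells; capitals mark the motif TGATAA.
Cubn: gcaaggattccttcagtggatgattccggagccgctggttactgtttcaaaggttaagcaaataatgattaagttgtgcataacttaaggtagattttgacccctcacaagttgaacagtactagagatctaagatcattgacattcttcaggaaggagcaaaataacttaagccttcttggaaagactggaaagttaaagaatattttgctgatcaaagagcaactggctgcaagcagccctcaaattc
Dab2: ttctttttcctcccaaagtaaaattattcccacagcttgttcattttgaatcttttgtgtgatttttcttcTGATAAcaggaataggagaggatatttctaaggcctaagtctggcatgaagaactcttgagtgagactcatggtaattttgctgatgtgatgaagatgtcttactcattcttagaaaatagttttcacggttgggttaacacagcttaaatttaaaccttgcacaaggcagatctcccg
The Cubn window held none of the motifs, and the Dab2 window held 1 match to TGATAA. Both windows were poor in G and C, with 39.6% and 36.8%, where the median window had 52.4%. The Pdgfra window held no match, the outer Hnf4a window held AGATAA and ACAAT, and 1 Foxa2 window held AGATAA and ACAAAG. A match is a string of letters and not a site.

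The FGF pathway, upstream of Gata6, was followed in 17 measured of 19 listed genes. In limma 0 of them passed the adjusted threshold against parental cells in KO, 0 in KO+WT and 1 in KO+Mut. At an unadjusted p below 0.05 were 3, 7 and 5. The list medians against parental were -0.07, -0.05 and -0.11 (0.00 for all genes in each comparison). The 1 gene was Dusp4, a phosphatase gene, which fell by 0.99 in KO+Mut (adjusted p = 0.027). Its parental arrays read 6.98, 7.52 and 7.21, KO arrays 6.29, 6.55 and 6.15, KO+WT arrays 6.40, 6.52 and 6.20 and KO+Mut arrays 6.11, 6.65 and 5.98. No array of another group reached the parental range. Leaving out 1 of the 6 arrays ended the Dusp4 call in KO+Mut in 4 of 6 cases, up to an adjusted p of 0.132. In KO cells Dusp4 was -0.91, with adjusted p = 0.0995 and 0.00909 with the block, and in KO+WT it was -0.86 (0.0778, and 0.00778 with the block). Both are falls by the blocked fit.

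Fgfr2, a receptor that primitive endoderm precursors use to receive FGF4, read 6.17, 6.90 and 7.08 for parental, 5.05, 5.98 and 6.31 for KO, 5.09, 5.95 and 5.21 for KO+WT and 5.11, 5.92 and 5.61 for KO+Mut arrays. The KO arrays overlapped the parental ones and the add-back arrays did not. With the block Fgfr2 fell by 1.30 in KO+WT (adjusted p = 0.0154, and 0.15 without the block) and by 1.17 in KO+Mut (0.0166, and 0.172 without). In KO it was -0.94 (0.0773 with the block). With the block 1, 3 and 4 genes of the FGF list fell in KO, KO+WT and KO+Mut, among them Spred1 in both add-backs and Fgf4 in KO+Mut (-0.53, adjusted p = 0.021). Differences of 4, 5 and 7 of the 17 genes lay above 0 in KO, KO+WT and KO+Mut, and none rose by either fit. The highest was Etv4 in each group, at 0.33, 0.47 and 0.43. All its arrays in those groups lay above its parental arrays (6.20, 6.61 and 6.72), though only just in KO+Mut.

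Ligands, co-receptors and endocytic partners of PDGFRA, DAB2 and cubilin numbered 17 measured of 18 listed, and 0 passed the limma test against parental cells in any group, with 2 in KO, 2 in KO+WT and 3 in KO+Mut at an unadjusted p below 0.05. Lrp2, the megalin gene, differed by -0.54, -0.56 and -0.67 in KO, KO+WT and KO+Mut, with adjusted p of 0.744, 0.46 and 0.323. Amn, the gene of the cubilin partner amnionless, differed by -0.23, -0.10 and -0.05, and Pdgfa, the ligand gene of PDGFRA, by -0.12, 0.16 and 0.03. With the block Pdgfrb, the gene of the related PDGF receptor, rose by 0.65 in KO (adjusted p = 0.0331, and 0.479 without the block). Cltb, a clathrin light chain gene, rose with the block by 0.65 in KO+WT and 0.64 in KO+Mut (0.0215 and 0.0174). For 15 measured relatives of the 9 genes (17 listed), medians against parental were -0.07, 0.17 and 0.08 in KO, KO+WT and KO+Mut. Of the 15, 4, 11 and 9 lay above 0, and 2, 5 and 3 had an unadjusted p below 0.05. In limma 1 passed, in KO+Mut, where 0.992% of all genes did. This was Sox18, a SOX factor of endothelium, which rose by 1.05 (adjusted p = 0.0417) and lost the call in all 6 leave-one-out fits. With the block Sox18 also rose in KO+WT, by 0.90 (0.0342), and Sox2, the pluripotency SOX factor gene, fell by 0.40 in KO+Mut (0.0344). Gata5, Foxa3 and Hnf4g had differences between -0.05 and 0.22 against parental cells. Foxa1 had the lowest KO difference of the relatives, -0.56, and passed neither fit against parental cells. Its arrays spanned 5.22 to 5.70 in parental and 4.67 to 5.04 in KO cells. The Foxa1 means were 5.66 in KO+WT and 5.76 in KO+Mut, above the parental mean of 5.39.

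The products of parietal endoderm, the basement membrane making derivative of the lineage, were represented by 18 measured genes of 18 listed. Against parental cells 0 passed in KO in limma. At an unadjusted p below 0.05 were 8 in KO, 7 in KO+WT and 10 in KO+Mut, where 6.94%, 10.7% and 11.5% of all genes were. In KO+WT 3 fell, and in KO+Mut 3 fell and 1 rose, with list medians of -0.26, -0.16 and -0.30. Srgn, a secretory granule proteoglycan gene, fell by 1.23 in KO+WT and 1.31 in KO+Mut (adjusted p = 0.000939 and 0.000383), and the calls were kept in 6 of 6 leave-one-out fits in each. Lamb1, a laminin chain gene, fell by 0.92 and 0.95 (0.0222 and 0.0107). Lama1, the laminin alpha chain gene of this basement membrane, fell by 0.94 and 0.95 (0.0477 and 0.0301). Leaving out 1 of the 6 arrays could end the laminin calls, with an adjusted p of up to 0.0902 for Lamb1 in KO+WT and 0.0527 in KO+Mut, and up to 0.194 and 0.141 for Lama1 in KO+WT and KO+Mut. The gene that rose was Snai1, a transcription factor of epithelial to mesenchymal transition, by 1.26 in KO+Mut (0.0375), a call kept in 0 of 6 leave-one-out fits. With the block Lama1 also fell in KO, by 0.73 (0.0227), Snai1 rose in KO+WT, by 0.98 (0.0189), and Vim, an intermediate filament gene, fell by 0.45, 0.41 and 0.50 in KO, KO+WT and KO+Mut (0.0387, 0.0314 and 0.00999). Against KO cells, limma without the block called Srgn lower by 0.65 in KO+WT (adjusted p = 0.0493) and by 0.73 in KO+Mut (0.0187), and leaving out any 1 of the 6 arrays ended both calls. Snai1 rose against KO by 1.40 in KO+Mut (0.0177), a call kept in 4 of 6 leave-one-out fits.

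Later visceral endoderm genes, the serum protein, apolipoprotein and uptake genes that Foxa2 and Hnf4a accompany, were 24 measured of 26 listed. Of these 0 passed the limma test in any group against parental cells, with 3, 3 and 2 at an unadjusted p below 0.05 in KO, KO+WT and KO+Mut and medians of -0.17, -0.04 and -0.05. With the block Lefty1, a Nodal antagonist gene, rose by 0.68 in KO+WT and 0.81 in KO+Mut (adjusted p = 0.0474 and 0.0195). The mean signal of the list, near the array medians, was 3.89 to 4.11 in parental and 3.80 to 3.84 in KO arrays. It was 3.94 to 3.98 in KO+WT and 3.93 to 3.99 in KO+Mut arrays, so every KO array lay below all others. In KO, 20 of 24 differences from parental were below 0, where 49.8% of all genes were. Against KO, 19 of 24 lay above 0 in each add-back, with medians of 0.12 in KO+WT and 0.05 in KO+Mut (-0.00 and -0.01 for all genes). Definitive endoderm and mesendoderm genes, 15 measured of 16, also gave 0 calls in limma against parental cells, with 1, 1 and 2 at an unadjusted p below 0.05.

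**Figure D4:**
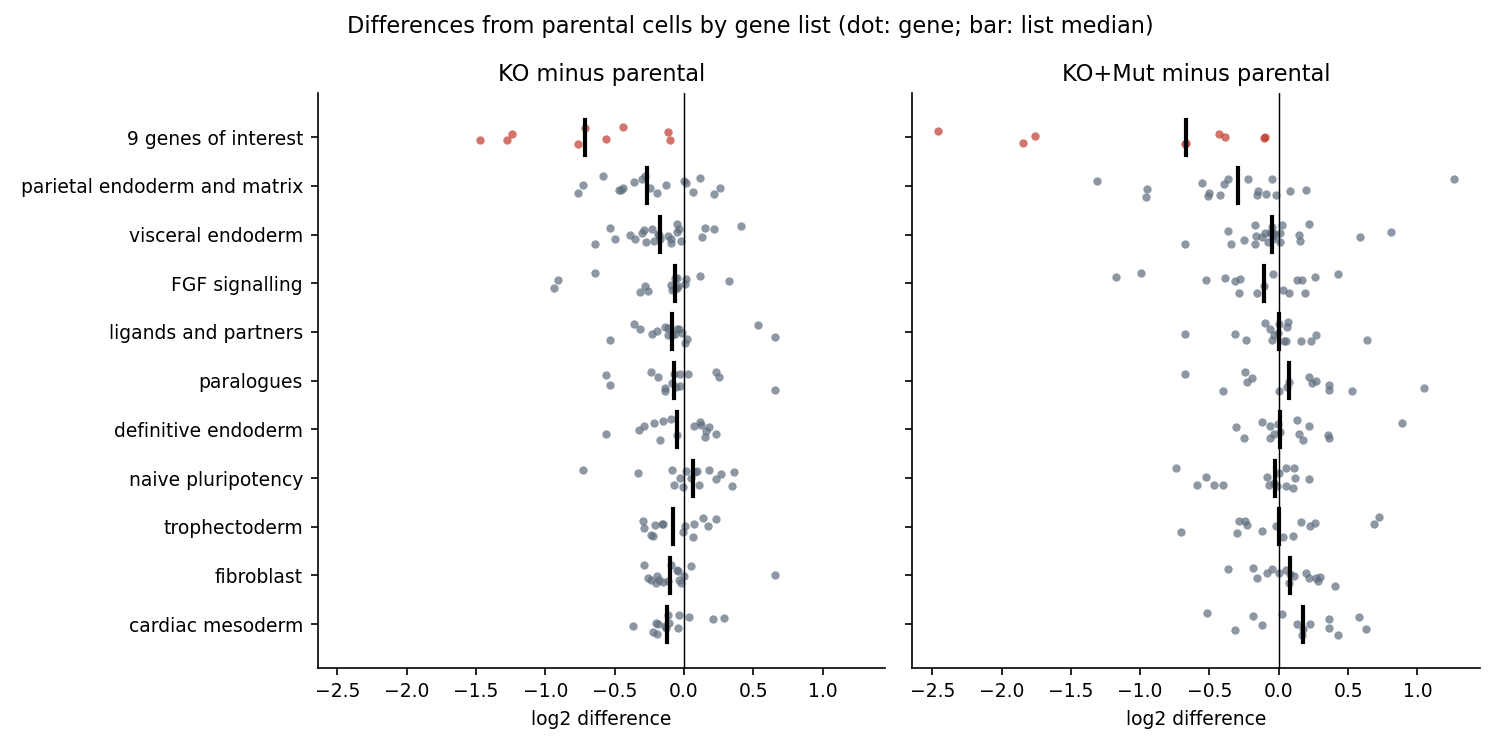
Log2 differences from parental cells in KO and KO+Mut cells for every measured gene of each gene list, with a dot for each gene and a bar for the list median. The median of the 9 genes lies at -0.71 in KO and -0.67 in KO+Mut, and that of the parietal endoderm list at -0.26 and -0.30.

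Markers of other cells that express Pdgfra or GATA factors were read in the same arrays. The fibroblast list, 16 measured of 16, had a mean signal of 3.61 to 3.85 in the 12 arrays, medians of -0.10, 0.08 and 0.08 against parental cells and 0 calls in limma (1, 0 and 2 at an unadjusted p below 0.05). In each group 4 of the 16 had a mean below the array's lower quartile. The cardiac mesoderm list, 14 of 14, had 0 calls in limma against parental cells without the block (0, 5 and 3 at an unadjusted p below 0.05), with medians of -0.12, 0.20 and 0.17. With the block Tbx20, a T-box gene of this list, rose against parental cells by 0.83 in KO+WT (adjusted p = 0.00752, and 0.0595 without) and by 0.58 in KO+Mut (0.0236, and 0.182 without). Against KO cells, 12 of the 14 genes lay above 0 in each add-back, with medians of 0.30 in KO+WT and 0.30 in KO+Mut (-0.00 and -0.01 for all genes). Of them only Foxf1, a forkhead factor gene, was called without the block. It rose against KO cells by 0.69 in KO+WT (0.0499) and 0.67 in KO+Mut (0.0456), and leaving out any 1 of the 6 arrays ended both calls. The trophectoderm list, 14 of 14, had medians of -0.08, -0.03 and 0.00 against parental cells (0, 2 and 2 at an unadjusted p below 0.05). In KO+Mut 7 of the 14 lay below 0 and 7 above. Only Ascl2 passed limma against parental cells without the block. It rose in KO+Mut by 0.68 (adjusted p = 0.0247), a call kept in 1 of 6 leave-one-out fits. With the block Tfap2c fell there by 0.71 (0.0202). Against KO cells Ascl2 rose in KO+Mut by 0.84 (0.00501), a call kept in 6 of 6 such fits. Their part in the results for Pdgfra, Gata4 and Gata6 was not tested.

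The 10 genes whose signals over the 12 arrays were most like the mean of the 9 centred genes, out of 16626 ranked, were Lama1 (Pearson r = 0.958), Klb (0.955), Podxl (0.955), Amot (0.954), Runx1 (0.949), Snx2 (0.947), Rhox5 (0.937), Fgfr2 (0.927), Dram1 (0.927) and Mme (0.926). The arrays share groups and replicate numbers, so these values describe a likeness over 12 arrays and carry no test. Klb encodes the co-receptor beta-Klotho, and its arrays read 5.18, 5.77 and 6.42 for parental, 3.88, 4.52 and 5.32 for KO, 3.58, 4.19 and 3.91 for KO+WT and 3.52, 3.73 and 3.58 for KO+Mut arrays. The Klb difference from parental was -1.21 in KO, -1.89 in KO+WT and -2.17 in KO+Mut. Rhox5, a homeobox gene, differed by -1.03, -1.29 and -1.15, and Podxl, a sialomucin gene of apical membranes, by -0.83, -1.17 and -1.28.

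**Figure D5:**
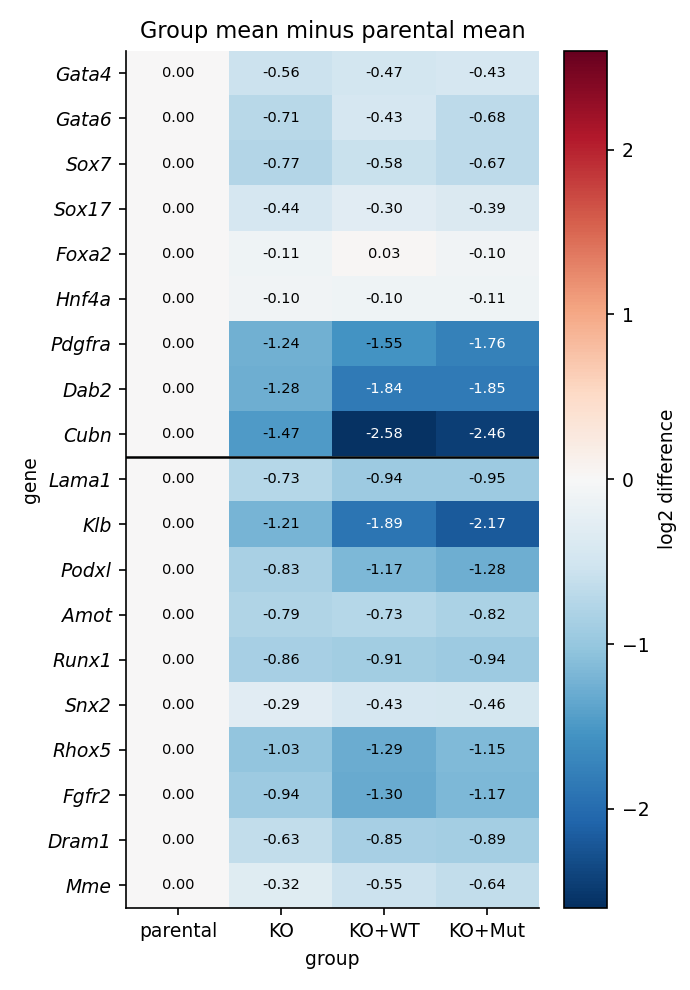
Group mean minus parental mean, in log2 units, for the 9 genes (above the line) and the 10 genes most like their mean (below it), in the 4 groups. Cubn at -1.47, -2.58 and -2.46 and Klb at -1.21, -1.89 and -2.17 are the darkest rows, and Foxa2 and Hnf4a lie near 0.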

How the data were processed

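The deposited table held 1 log2 signal per probe set and array, a scale taken from the values themselves. The authors had normalized these signals, and the submitters' processing notes name Transcriptome Analysis Console. The sources used here give neither its version nor the background correction or genome build. Of 41345 probe sets, 23521 had 1 gene symbol, 1814 several and 16010 none, and single-symbol probe sets, the one of highest mean for a gene, gave 22180 genes. Differences were fitted with limma 3.58.1 in R 4.3.3 (lmFit, eBayes, 1 mean per group, all 12 arrays, two-sided, Benjamini-Hochberg over all genes, threshold 0.05, no fold limit), and the script was tested on simulated data.

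Replicate numbers of the titles were taken to pair arrays where the deviations of same-numbered arrays correlated above 0.1 in all 3 numbers: KO against parental (0.36, 0.15 and 0.42), KO+WT (0.33, 0.15 and 0.31) and KO+Mut against parental (0.33, 0.13 and 0.36), and KO+Mut against KO+WT (0.40, 0.21 and 0.47). They were not for either add-back against KO. Other genes were named as the list genes of smallest p against parental in KO, list genes that passed, and the 10 most like the mean of the 9 among genes above percentile 25 of signal. The genes and lists were chosen with earlier results of these data known. Promoter windows came from RefSeq (GRCm38.p6); all 9 genes were found there by Entrez identifier. Alternatives were the block, quantile normalization, median centring, a filter on dim genes, trend and robust variances, 6 arrays only, mean of probe sets, array weights and leaving out each array. Python 3.11.15 with matplotlib 3.10.9 and pandas 2.3.3 drew the figures.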

Additional observations from a re-analysis of the deposited data

How the results depend on the processing

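Against parental cells, Pdgfra, Dab2 and Cubn kept their negative sign in every alternative run. Counts of all genes called, in the order KO, KO+WT and KO+Mut against parental, then KO+WT and KO+Mut against KO, were 137, 458, 695, 494 and 716 with the replicate block. With array weights they were 139 in KO, 185 in KO+WT and 455 in KO+Mut against parental and 528 in KO+Mut against KO; with 6 arrays they were 27 in KO and 52 in KO+WT against parental and 75 in KO+WT against KO. Leaving out 1 array gave 19 to 50, 51 to 131, 104 to 228, 86 to 183 and 119 to 315. The block is not supported by pairing against KO, where number 2 correlated by 0.06 and 0.08; there it called 1 of the 9 genes in KO+Mut, Pdgfra (adjusted p = 0.0339). Of the 9 genes without the block, trend and robust variances called 1 in KO+WT and 3 in KO+Mut against parental, array weights 1 and 3, 6 arrays 1 and 1, and the dim filter 1 in KO+Mut. With the block, 1, 3 and 3 were called. The following were chosen after seeing the data: the block with centring called 1, 3 and 4, with quantile normalization 1, 3 and 3, with 6 arrays 1, 2 and 3, with trend and robust variances 4, 3 and 4, and with the dim filter 3, 3 and 3 against parental. Against KO the block called 1 in KO+WT with trend and robust variances, and in KO+Mut 1 with centring, 1 with quantile normalization, 1 with the dim filter and 2 with trend and robust variances. For these settings, and for leaving out 1 array with the block, the share of all genes called was not computed. It is also not given here for trend and robust variances or the dim filter without the block. These counts are therefore not a result about the 9 genes. Leaving out 1 array, with or without the block, gave 0 to 3, 0 to 4 and 0 to 4 against parental and 0 to 2 in KO+Mut against KO. The causes were not tested.

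Signs that turned were of small differences. Under array weights these were Foxf1, of the cardiac mesoderm list, in KO minus parental (0.031), Hnf4a in KO+WT minus KO (0.026), KO+Mut minus KO (0.053) and KO+Mut minus KO+WT (0.027), and Foxa2 in KO+Mut minus KO (-0.015). Under centring, also with the block, they were Gata6 (-0.046), Sox17 (-0.024) and Foxa2 (-0.066) in KO+Mut minus KO and Foxa2 in KO+WT minus parental (-0.027), and under quantile normalization, also with the block, Foxa2 in KO+Mut minus KO (-0.025). Leaving out 1 array gave, for KO+Mut minus KO+WT, Cubn -0.26 to 0.39, Dab2 -0.34 to 0.34, Pdgfra -0.50 to 0.093, Gata4 -0.070 to 0.17, Gata6 -0.56 to 0.15, Hnf4a -0.090 to 0.11, Sox17 -0.25 to 0.075 and Sox7 -0.20 to 0.031. For KO+Mut minus KO it gave Foxa2 -0.10 to 0.11, Gata4 -0.0094 to 0.26, Gata6 -0.27 to 0.44, Hnf4a -0.093 to 0.13, Sox17 -0.11 to 0.20 and Sox7 -0.0078 to 0.22. For KO+WT minus KO it gave Gata4 -0.049 to 0.21, Hnf4a -0.12 to 0.13 and Sox17 -0.019 to 0.28. Against parental it gave Foxa2 in KO+WT -0.091 to 0.18, and Foxf1 -0.21 to 0.074 and Snai1 -0.25 to 0.078 in KO.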

Other observations

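The pluripotency genes that oppose this lineage were read in the same arrays. Of 16 naive pluripotency genes, medians against parental were 0.06 in KO, 0.01 in KO+WT and -0.03 in KO+Mut. Against KO cells the medians were -0.13 in KO+WT and -0.12 in KO+Mut, with 13 and 12 of the 16 below 0. Prdm14, a regulator of naive cells that restrains FGF signalling, fell by 0.67 in KO+WT (adjusted p = 0.0464 in limma), a call that leaving out any 1 of the 6 arrays ended. In KO+Mut it was -0.59, with an adjusted p of 0.0592 and 0.0407 with the replicate block. In KO it was 0.11. Against KO cells Prdm14 fell by 0.78 in KO+WT (adjusted p = 0.0148) and by 0.70 in KO+Mut (0.0194), calls kept in 2 of 6 leave-one-out fits in each.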
